A study of Mus musculus with 6 samples.

Results

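The 8 genes described here, Exoc1 to Exoc8, encode the subunits of the exocyst, and they were taken by name from a table of 32285 mouse gene identifiers. The family was chosen by the level of Exoc4, already known to be higher in the p57 KO libraries than in control. The values of Exoc4 in that comparison are therefore a description with no test, and the question was whether the other 7 subunits moved with it. RNA was measured in GS cells, cultured mouse spermatogonia with the features of germline stem cells. The p57 KO group (3 libraries) carried loxP sites in Cdkn1c on both chromosomes (flox/flox) and had Cre recombinase from an adenovirus. Cdkn1c encodes p57, an inhibitor of cyclin-dependent kinases. The control group (3 libraries) came from cells with the same floxed alleles. The cells were dissociated 2 days after infection and passed over a Sephadex column before RNA extraction. The labels give the strain as BDF1 in one field and as C57BL/6 and 129 in another, and the age of the mice as 3 days or as 10 days. Whether control cells were infected with any virus, and which part of Cdkn1c the deletion covers, are points the sources used here leave unstated. No source says that the replicates were separate cultures. A p-value here sets the difference between the groups against the spread of the libraries within them. That spread is estimated partly from all tested genes, and it may be technical.

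The exocyst is a tethering complex that holds secretory vesicles at the plasma membrane before SNARE proteins fuse them. Exoc1, Exoc2, Exoc3 and Exoc4 form one module of the complex, and Exoc5, Exoc6, Exoc7 and Exoc8 form the other. Exoc1 and Exoc7 bind the phosphoinositides of the plasma membrane. Exoc6 binds RAB11 on vesicles, and Exoc2 and Exoc8 bind the RAL GTPases. In the fly, spermatocytes need exocyst subunits to divide, and in the mouse Exoc1 is needed for spermatogenesis.

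Total counts per library lay between 15940375 and 17893671 in p57 KO and between 15662833 and 16979459 in control. The level of Cdkn1c was 8.71, 9.44 and 8.51 CPM in the p57 KO libraries, against 20.9, 21.4 and 19.9 CPM in the control libraries. CPM is the normalised read count, the counts scaled to a common library total after TMM normalisation. The groups did not overlap, in the direction of the labels, with a log2 difference of -1.22 (SE 0.09; adjusted p = 4.07e-09 from edgeR). The 8 markers of undifferentiated spermatogonia were all present, with a summed level of 2969.9 to 3154 CPM in p57 KO and 3559 to 3641 CPM in control, and 7 of them fell. The 16 fibroblast and feeder cell markers summed to 1356, 1803 and 2657 CPM in p57 KO replicates 1, 2 and 3, against 878, 1117 and 909.7 CPM in the control replicates, and 5 of them rose. In bulk RNA, fewer cells of a type and less RNA per cell cannot be told apart. The 5 Leydig cell markers summed to 3.14 to 3.29 CPM in p57 KO and 2.94 to 3.88 CPM in control. Most of this was Star, at 2.94 to 3.71 CPM over the libraries, while Cyp11a1, Hsd3b1 and Cyp17a1 were under 0.1 CPM in every library. The 7 Sertoli cell markers summed to 28.2 to 29.6 CPM in p57 KO and 28.9 to 32.4 CPM in control. The 5 macrophage markers summed to 17.5 to 21.1 CPM in p57 KO and 12.7 to 13.6 CPM in control. Only 2 of these 5 were tested, and both were called higher. Most of that sum was Cd68, at 15.1 to 18.1 CPM in p57 KO and 11.7 to 13 CPM in control. The 5 endothelial markers summed to 179 to 180.3 CPM in p57 KO and 183 to 202 CPM in control, with 1 called higher and 2 lower. Of all tested genes, 23.3% were called.

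The promoter windows of Exoc4 and of Exoc5 and Exoc7, the other subunits with the smallest p-values, are shown so that the sequences around their starts can be set beside the levels. All 8 subunits matched RefSeq promoters (12 windows, GRCm38.p6), which run from 250 bases before to 50 bases after the start. Capitals mark matches on either strand to any of the motifs searched, which did not overlap one another in these windows. The CCAAT box was searched as its own letters, the element bound by TBP as TATAAA and the one bound by SP1 as GGGCGG. The cAMP response element was searched as TGACGT, the AP-1 element as TGANTCA and the E-box of MYC and TFEB as CACGTG. The ETS element was searched as CCGGAAG, the YY1 element as AAGATGG and a part of the NRF1 element as TGCGCA. The windows are 300 bases long. They lie at chr6:33248878-33249177 on the plus strand (Exoc4), chr14:49066618-49066917 on the minus strand (Exoc5) and chr11:116306685-116306984 on the minus strand (Exoc7).
Exoc4: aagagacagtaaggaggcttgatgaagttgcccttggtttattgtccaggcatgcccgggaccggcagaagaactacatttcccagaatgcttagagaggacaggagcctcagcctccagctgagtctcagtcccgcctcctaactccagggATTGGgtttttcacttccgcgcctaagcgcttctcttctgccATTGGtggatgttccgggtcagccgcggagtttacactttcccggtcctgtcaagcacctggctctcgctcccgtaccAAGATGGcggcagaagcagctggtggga
Exoc5: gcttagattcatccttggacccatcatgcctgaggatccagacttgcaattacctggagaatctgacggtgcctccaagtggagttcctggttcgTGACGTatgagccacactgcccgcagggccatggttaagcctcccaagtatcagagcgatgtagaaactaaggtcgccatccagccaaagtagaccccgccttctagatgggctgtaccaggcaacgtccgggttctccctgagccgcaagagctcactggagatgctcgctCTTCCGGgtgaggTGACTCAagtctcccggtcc
Exoc7: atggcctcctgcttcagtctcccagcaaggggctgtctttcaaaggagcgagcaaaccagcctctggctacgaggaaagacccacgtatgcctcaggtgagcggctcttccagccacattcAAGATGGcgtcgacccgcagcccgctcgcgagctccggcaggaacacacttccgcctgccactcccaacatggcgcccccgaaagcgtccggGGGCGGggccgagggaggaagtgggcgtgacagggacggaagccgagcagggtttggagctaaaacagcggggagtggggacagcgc

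Exoc4 has CCAAT on the reverse strand at -98 and -56 from the start and AAGATGG, the core of the YY1 element, at 23. Among the 8 subunits, CCAAT was in the windows of Exoc1 and Exoc4, against 37.4% of the 32851 promoters in the table. AAGATGG was in those of Exoc4, Exoc6 and Exoc7, against 6.3% of all promoters. Exoc5 has TGACGT, the cAMP response element, at -155, the ETS element CCGGAAG on the reverse strand at 18, and TGACTCA, an AP-1 element, at 31. The RefSeq start of Exoc5 lies 14 bases upstream of the gene's start in the GENCODE annotation. On the same scale the RefSeq starts of Exoc4 and Exoc7 lie at -43 and -499, which is downstream, inside the annotated gene. The whole window of Exoc7 lies within its annotated gene. All positions here hold for the RefSeq start only. TGACGT was in windows of 3 subunits (7.5% of all promoters), CCGGAAG in those of 3 (8.9% of all promoters) and TGANTCA in that of 1 (7.8% of all promoters). Exoc7 has the GC box GGGCGG at -37 and AAGATGG at -129. GGGCGG was in windows of 5 subunits, and in 35.7% of all promoters. CACGTG was in a window of 1 subunit, Exoc1, and TATAAA and TGCGCA in those of 0 subunits, against 7.2%, 13.6% and 7.8% of all promoters, in that order. The windows had a GC content of 56.3% (Exoc4), 56.3% (Exoc5) and 64.7% (Exoc7), against a median of 52.7% over all promoters. These matches are letters in a window, and binding was not measured.

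The mean level of Exoc4 in p57 KO was 53.8% above that in control, as a description with no test. None of the 7 other subunits, which were tested, passed the threshold. Exoc4, the SEC8 subunit, had 259.8, 267 and 271 CPM in p57 KO, against 167, 178 and 173 CPM in control. The lowest p57 KO library was above the highest control library. The means were 266 ± 5.47 CPM in p57 KO and 173 ± 5.67 CPM in control (SD, n = 3 each), a ratio of 1.54 and a log2 fold change of 0.62 (SE 0.031). The counts behind these levels were 2709 to 4831 reads per library. Exoc4 (ENSMUSG00000029763) spans 724.9 kb at chr6:33249085-33973979 on the plus strand (mm10), with 12640 annotated exon bases in 10 transcripts. None of its 76-base stretches, the read length, occurs in another annotated gene. The 3 annotated genes inside its span share no exon bases with it. Within each group the Exoc4 levels stood in the same order as the fibroblast and feeder marker sums of the libraries. With the mean log2 CPM of those markers as a covariate (the fibroblast score), the log2 fold change of Exoc4 was 0.54. The score was 4.46, 5.08 and 5.59 in p57 KO replicates 1, 2 and 3, against 3.64, 4.2 and 3.71 in the control replicates. It did not overlap between the groups, so the score and the group cannot be fully told apart in any fit with this covariate.

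The share of all 14814 tested genes called at an edgeR adjusted p under 0.05 was 23.3%. Of the 7 other subunits, 0 were called higher and 0 lower, and DESeq2 and limma-voom also called none. An unadjusted p under 0.05 was reached by 2 of them, Exoc5 and Exoc7. Their median log2 fold change was -0.028, against -0.0019 over all tested genes. The 95% confidence intervals of the 7 fold changes lay between 0.863-fold and 1.14-fold, all below the 1.54-fold difference of Exoc4. Of the 7, 3 had groups that did not overlap, 1 higher and 2 lower. Such groups were found in 39.2% of all tested genes, 19.5% higher and 19.7% lower. Counts of these 7 genes were 350 to 2347 reads per library. The 7 genes lie on chromosomes 5 (Exoc1), 13 (Exoc2 and Exoc3), 14 (Exoc5), 19 (Exoc6), 11 (Exoc7) and 8 (Exoc8), so none is a neighbour of Exoc4.

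**Figure D1:**
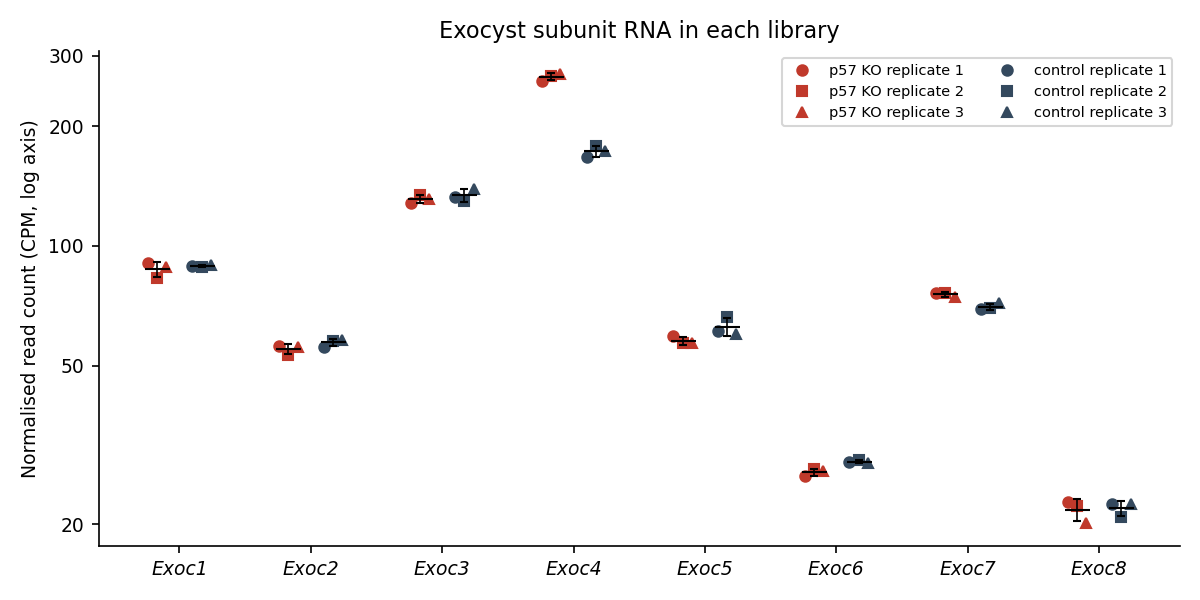
Normalised read counts (CPM, log axis) of the 8 exocyst subunits, p57 KO left of control, with 1 point per library, bars for the mean and SD of 3 libraries and a symbol shape per replicate. The p57 KO libraries of Exoc4 lie between 259.8 and 271 CPM and its control libraries between 167 and 178 CPM, while the other subunits lie at similar heights in both groups.

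In the module that holds Exoc4, the other 3 subunits had log2 fold changes between -0.055 and -0.026. Exoc1, the SEC3 subunit, had 90.7, 83.2 and 88.5 CPM in p57 KO, against 89.1, 88.6 and 89.5 CPM in control. The 3 control values lay within the range of the p57 KO values. The log2 fold change of Exoc1 was -0.026 (95% CI -0.11 to 0.055, edgeR adjusted p = 0.681).

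Exoc2, the SEC5 subunit, had 56, 53.3 and 55.8 CPM in p57 KO, against 55.8, 57.8 and 58 CPM in control. The lowest control library lay within the range of the p57 KO libraries. The log2 fold change of Exoc2 was -0.055 (95% CI -0.15 to 0.04, edgeR adjusted p = 0.418). Exoc3, the SEC6 subunit that contacts SNARE proteins, had 128, 134 and 131 CPM in p57 KO, against 133, 129.6 and 139 CPM in control. Its groups overlapped, with a log2 fold change of -0.028 (95% CI -0.1 to 0.045, edgeR adjusted p = 0.615).

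In the other module, Exoc5 and Exoc7 differed in opposite directions, by less than 1.1-fold in the means, and neither passed the threshold. Exoc5, the SEC10 subunit, had 59.3, 57.1 and 57 CPM in p57 KO, against 61.1, 66.2 and 60.1 CPM in control. Every p57 KO library was below every control library. The log2 fold change of Exoc5 was -0.11 (95% CI -0.21 to -0.017, edgeR adjusted p = 0.082). Exoc5 shares 528 exon bases with Ap5m1 on the other strand, and the strand setting of the counting is unknown. Ap5m1, a subunit of an adaptor complex of late endosomes, fell to 33.6 ± 1.45 CPM in p57 KO, against 38.5 ± 0.61 CPM in control (SD, n = 3 each; edgeR adjusted p = 0.0136). Ap5m1 was not called in DESeq2 (adjusted p = 0.0803), with the fibroblast score (0.63, log2 fold change -0.14), without p57 KO replicate 3 (0.0717) or without control replicate 2 (0.0503). Reads of the shared stretch cannot be assigned to either gene here.

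Exoc7, the EXO70 subunit, had 76, 76.2 and 74.3 CPM in p57 KO, against 69.3, 69.7 and 71.7 CPM in control. Every p57 KO library was above every control library. Exoc7 shares 293 exon bases with Gm26730, a non-coding gene on the other strand that is not analysed here. The log2 fold change of Exoc7 was 0.1 (95% CI 0.022 to 0.19, edgeR adjusted p = 0.0605). With only genes of at least 1 CPM in 3 libraries tested, the adjusted p was 0.0488, so the call of Exoc7 depends on that filter.

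Exoc6, the SEC15 subunit, had 26.4, 27.5 and 27.2 CPM in p57 KO, against 28.6, 28.9 and 28.4 CPM in control. The groups did not overlap, and the log2 fold change of -0.085 missed the threshold (95% CI -0.21 to 0.042, edgeR adjusted p = 0.346). Exoc8, the EXO84 subunit, had 22.7, 22.2 and 20.1 CPM in p57 KO, against 22.4, 20.8 and 22.4 CPM in control. Its groups overlapped, with a log2 fold change of -0.014 (95% CI -0.17 to 0.14, edgeR adjusted p = 0.917).

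**Figure D2:**
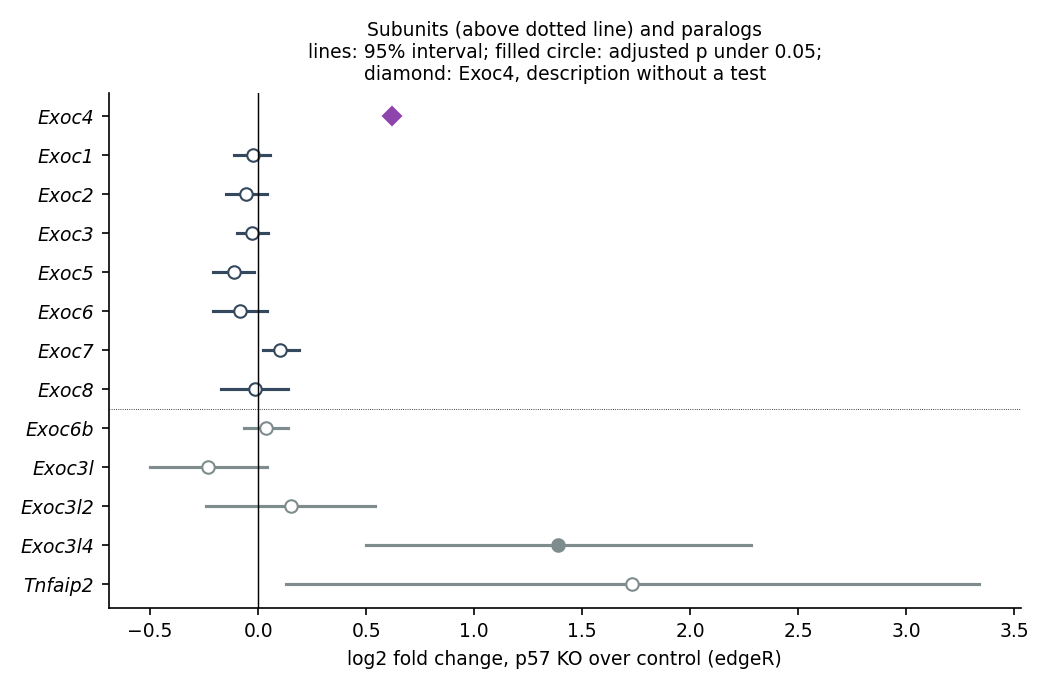
Log2 fold changes, p57 KO over control, of the 8 subunits (above the dotted line) and 5 paralogs, with 95% intervals as lines, filled circles for an adjusted p under 0.05 and a diamond without interval for Exoc4, which was not tested. The 7 intervals of the other subunits lie between -0.21 and 0.19, and Exoc4 stands at 0.62.

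Summed over the 7 subunits other than Exoc4, the level was 459, 453 and 454 CPM in p57 KO, against 459, 462 and 469 CPM in control. Summed over all 8, it was 719, 720.3 and 725 CPM in p57 KO, against 626, 639.8 and 643 CPM in control. The sum with Exoc4 thus differed by 13.4% between the group means and the sum without it by -1.65%. The log2 level of Exoc4 over the mean log2 level of the other 7 was 2.21, 2.27 and 2.3 in p57 KO, against 1.57, 1.66 and 1.6 in control.

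Counts grow with the length of a transcript, so levels were also compared per length. On the TPM scale with all annotated exon bases as the length, Exoc4 was at 78.1 ± 1.73 TPM in p57 KO and 51.7 ± 1.7 TPM in control (SD, n = 3 each). In p57 KO, Exoc3 (79.1 to 83.2 TPM) was above Exoc4 (76.1 to 79.4 TPM) in every library, though their ranges overlapped. Both were above Exoc7 at 63.2 to 64.9 TPM. In control the order was Exoc3 (81.8 to 87.9 TPM), Exoc7 (60.1 to 62.1 TPM) and Exoc4 (50 to 53.4 TPM), with no overlap between them. Exoc4 thus held a different place in the order in each group on this scale.

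The next genes in p57 KO were Exoc2, Exoc6 and Exoc1 at 29.3, 28.3 and 27 TPM on average, and these neighbours overlapped. In control, Exoc2 and Exoc6 overlapped at 31.1 and 30.6 TPM, above Exoc1 at 28 TPM. The lowest subunits were Exoc8, at 17.5 TPM in p57 KO and 18 TPM in control, and Exoc5, at 11.9 TPM in p57 KO and 13.1 TPM in control, without overlap between these 2 genes in either group.

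As a share of the 8 subunits per length, Exoc4 made up 23.1 ± 0.429% in p57 KO and 16.3 ± 0.503% in control. With the longest coding transcript as the length, Exoc4 was at 147 ± 3.13 TPM in p57 KO and 96.8 ± 3.15 TPM in control and was the highest subunit in both groups. Its place in the order therefore depends on the length used. A gene had the same length in every library, so its ratio between the groups could change only through the library totals of the scale. Which transcripts the reads came from was not measured.

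**Figure D3:**
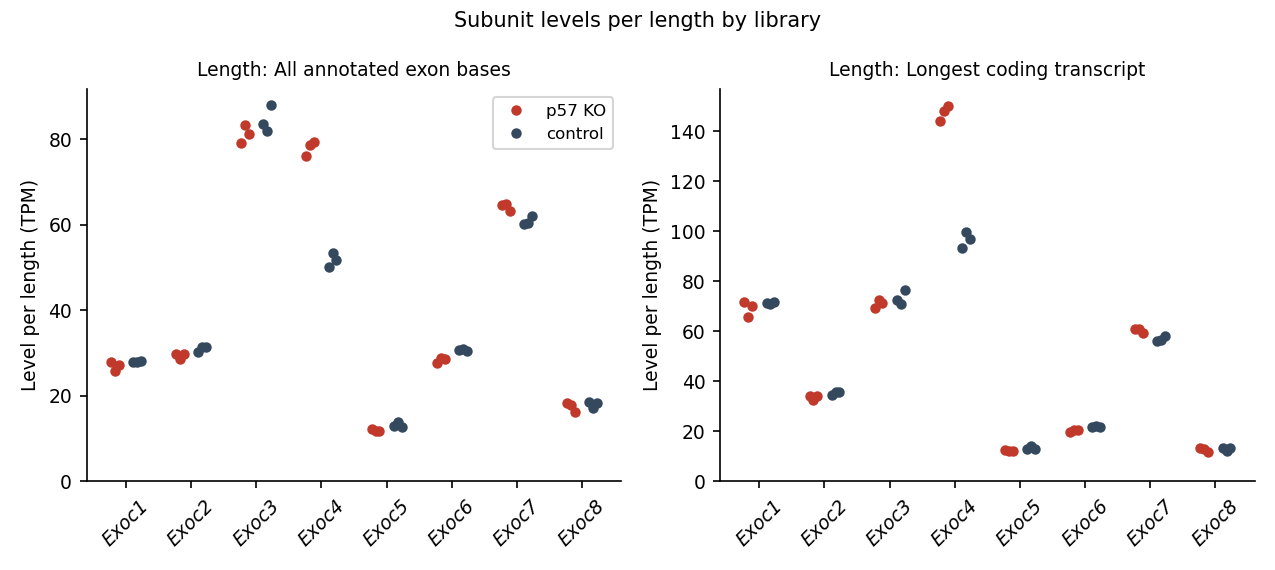
Levels per length (TPM) of the 8 subunits in each library, p57 KO left of control, with all annotated exon bases (left panel) or the longest coding transcript (right panel) as the length. Exoc4 averages 78.1 TPM in p57 KO and 51.7 TPM in control in the left panel, and 147 and 96.8 TPM in the right panel.

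Of 6 paralogs of the subunits, 5 were tested and Exoc1l was not analysed here. Exoc6b, the close relative of Exoc6, had 63.1, 55.5 and 56.6 CPM in p57 KO, against 57, 57.1 and 56.4 CPM in control. The groups overlapped, with a log2 fold change of 0.038 (95% CI -0.066 to 0.14, edgeR adjusted p = 0.636). Per length of all exon bases, Exoc6b was at 14.3 TPM in p57 KO and 14.2 TPM in control, below Exoc6 in both groups, and by the longest coding transcript it was above it, at 28.6 TPM in p57 KO and 28.2 TPM in control. No 76-base stretch is shared among the subunits and paralogs. Exoc3l averaged 7.32 CPM in p57 KO and 8.55 CPM in control (edgeR adjusted p = 0.22), and Exoc3l2 3.37 CPM in p57 KO and 3.05 CPM in control (edgeR adjusted p = 0.62).

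Exoc3l4, a relative of Exoc3, was the paralog that was called, at 13, 20 and 13 reads in p57 KO, against 4, 8 and 5 reads in control. It rose by 1.39 on the log2 scale (SE 0.43; adjusted p = 0.0212 from edgeR). The call was lost in DESeq2 (adjusted p = 0.122), with the fibroblast marker covariate (0.438), and without control replicate 1 (0.0997), control replicate 3 (0.0765) or p57 KO replicate 2 (0.12). The log2 fold change in these fits was 1.42, 1.32, 1.19, 1.34 and 1.14, in that order. Part of its exons (8.74% of its 76-base stretches) is shared with the antisense gene Gm10425. Tnfaip2, the gene of M-Sec, which drives membrane nanotubes, had 6.88, 14.2 and 22.1 CPM in p57 KO, against 2.85, 6.24 and 3.9 CPM in control. The log2 difference was 1.73 (SE 0.59; adjusted p = 0.119 from edgeR), and its p57 KO values stand in the same order as the fibroblast marker sums of those libraries. With that score as a covariate the log2 fold change of Tnfaip2 was -0.16. Tnfaip2 was called in DESeq2 (adjusted p = 0.0182) and without p57 KO replicate 1 (0.0407).

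Among 26 small GTPases, their regulators and the motors and lipid kinases that bring the exocyst to membranes, 3 rose and 4 fell (26.9%, against 23.3% of all tested genes), with a median log2 fold change of -0.0058. Myo5a, a myosin that carries vesicles along actin, rose to 77 ± 5.55 CPM in p57 KO, against 61.7 ± 1.28 CPM in control (log2 fold change 0.32, edgeR adjusted p = 5.44e-05). Rhoq, the TC10 GTPase that binds Exoc7, rose to 45.6 ± 1.62 CPM in p57 KO, against 34.8 ± 3.58 CPM in control (0.39, edgeR adjusted p = 0.000224). Ralgds, an exchange factor of the RAL GTPases, rose by 0.13 on the log2 scale (edgeR adjusted p = 0.0031). Rab10, a GTPase of exocytic vesicles, fell to 145 ± 1.34 CPM in p57 KO, against 161 ± 8.71 CPM in control (-0.15, edgeR adjusted p = 0.00398). Ralgps1, Arf6 and Rab3ip, named after their values were seen, fell by 0.18, 0.1 and 0.17 on the log2 scale (edgeR adjusted p of 0.0257, 0.0187 and 0.0182). Their calls were lost in DESeq2 (adjusted p of 0.129, 0.0557 and 0.0899), and none of them was called when p57 KO replicate 3 or control replicate 2 was left out. The best known GTPase partners of the exocyst, also named after their values were seen, did not pass: the log2 fold change was 0.054 for Rala, 0.067 for Ralb, -0.015 for Rab11a, 0.0031 for Rab8a and 0.032 for Cdc42 (edgeR adjusted p of 0.443, 0.399, 0.8, 0.976 and 0.424, in that order).

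In the plasma membrane SNARE machinery, which fuses the tethered vesicles, 19 of 20 genes were tested. Of these, 2 rose and 4 fell (31.6%, against 23.3% of all tested genes), with a median log2 fold change of -0.0091. Vamp7 was listed at 0 in every library. Vamp8, a vesicle SNARE, rose to 6.7 ± 1.18 CPM in p57 KO, against 4.4 ± 0.333 CPM in control (0.61, edgeR adjusted p = 0.00633). Its p57 KO levels of 5.49, 6.76 and 7.84 CPM stood in the same order as the fibroblast marker sums, and under the fibroblast score covariate its log2 fold change was 0.14 (adjusted p = 0.883). Stx3, a target membrane SNARE, fell to 40.8 ± 3.81 CPM in p57 KO, against 49.6 ± 1.24 CPM in control (-0.28, edgeR adjusted p = 0.00168). Snap47 and Llgl1 fell by 0.14 and 0.11 on the log2 scale (edgeR adjusted p of 0.00465 and 0.0105). Stx4a rose by 0.2 and Vamp3 fell by 0.11 on the log2 scale, both named after their values were seen (edgeR adjusted p of 0.0139 and 0.018). These calls were lost in DESeq2 (adjusted p of 0.0581 and 0.0686), when p57 KO replicate 3 was left out (0.112 and 0.0763) and when control replicate 3 was (0.0628 and 0.0718). Stx4a was also lost without control replicate 1 (0.054), Vamp3 without control replicate 2 (0.0681), and Llgl1 without control replicate 1 (0.0676) or p57 KO replicate 3 (0.0555).

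The exocyst belongs to the CATCHR family of tethers with COG and GARP, which act at the Golgi. Of 16 genes of the other CATCHR complexes, 0 rose and 3 fell (18.8%, against 23.3% of all tested genes), all called with edgeR. Over all tested genes 11.6% were called higher and 11.6% lower. The median log2 fold change of the 16 genes was -0.079, against -0.0019 over all tested genes. Vps54, a GARP subunit, fell to 55.4 ± 0.335 CPM in p57 KO, against 63.8 ± 1.53 CPM in control (-0.2, edgeR adjusted p = 0.00165). Cog8 and Cog5, subunits of COG, fell by 0.17 and 0.13 on the log2 scale (edgeR adjusted p of 0.0057 and 0.0191). Cog8 was not called without control replicate 1 (adjusted p = 0.0517), nor Cog5 in DESeq2 (0.107) or without control replicate 1 (0.0633), control replicate 3 (0.0568) or p57 KO replicate 3 (0.0866).

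The TRAPP, HOPS and CORVET tethers act at the Golgi, endosomes and lysosomes. Of 22 of their genes, 1 rose and 2 fell (13.6%, against 23.3% of all tested genes), with a median log2 fold change of -0.012. Vps41 rose by 0.1, while Vps39 and Trappc4 fell by 0.17 and 0.14, on the log2 scale (edgeR adjusted p of 0.0273, 0.00405 and 0.0324). Vps41 and Trappc4 were not called in DESeq2 (adjusted p of 0.0875 and 0.152), nor without control replicate 2 (0.0939 and 0.0735), control replicate 3 (0.0849 and 0.12), p57 KO replicate 1 (0.0708 and 0.0748) or p57 KO replicate 3 (0.0928 and 0.0948), and Vps41 also not without control replicate 1 (0.0652). The highest log2 fold change in either tether list was 0.16, in Trappc2l, which was not called. With the fibroblast marker score as a covariate, 248 genes of the whole table were called higher and 164 lower. In that fit 0 members of the GTPase, SNARE and tether lists were called in either direction. The score did not overlap between the groups, so a call lost under this covariate cannot be assigned to the markers or to the group. Under that covariate the log2 fold changes of some named members were as large as without it, at -0.17 for Rab10, 0.14 for Ralgds, -0.3 for Stx3, -0.25 for Vps54, -0.16 for Trappc4 and 0.11 for Vps41. Others were smaller, at 0.15 for Myo5a, 0.23 for Rhoq, 0.14 for Vamp8, -0.0063 for Llgl1, -0.055 for Cog5 and -0.019 for Vps39.

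**Figure D4:**
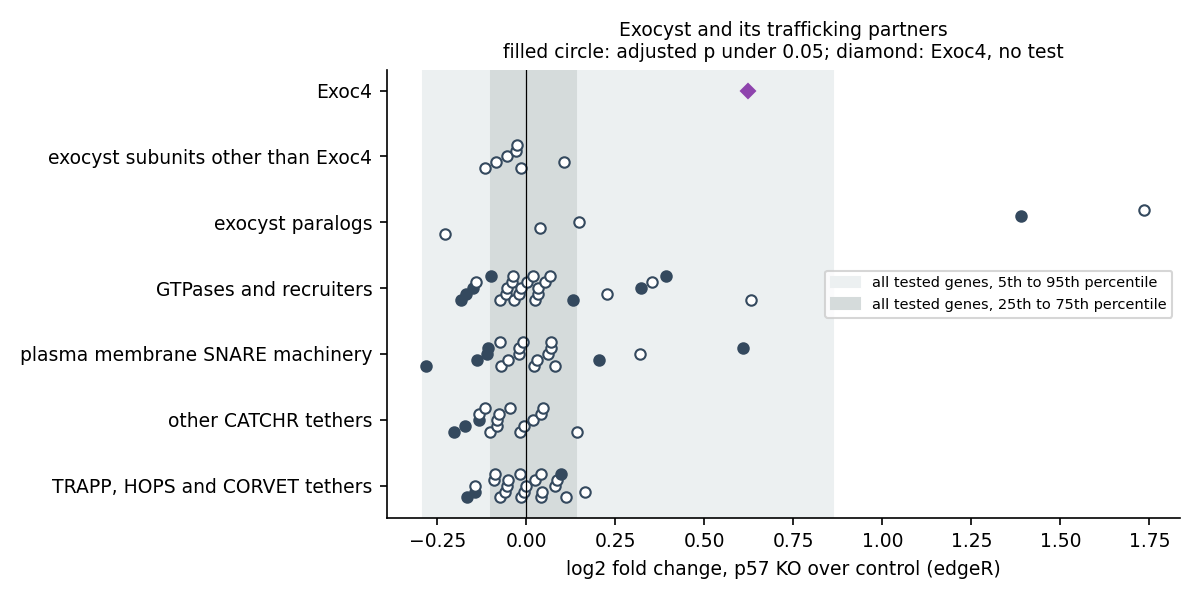
Log2 fold changes, p57 KO over control, of Exoc4, the other subunits, the paralogs and 4 trafficking lists, with 1 circle per tested gene, filled at an adjusted p under 0.05, over bands that hold the 25th to 75th and the 5th to 95th percentile of all tested genes. The subunits other than Exoc4 lie between -0.11 and 0.1, and Exoc4 lies at 0.62, inside the outer band that ends at 0.86.

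Among 9540 named genes with a mean of at least 10 CPM, the genes whose centred log2 CPM profile over the 6 libraries was nearest to that of Exoc4 were Sesn2, Epha8, St14, H2afj and Hexim1, as a description with no test. Their root mean square differences from Exoc4 were 0.033, 0.033, 0.044, 0.047 and 0.054 on the log2 scale. Sesn2, a stress-induced inhibitor of mTORC1 signalling, averaged 161 ± 3.55 CPM in p57 KO and 102 ± 1.89 CPM in control (SD, n = 3 each). Epha8, an ephrin receptor, averaged 13 ± 0.371 CPM in p57 KO and 8.51 ± 0.294 CPM in control. St14, the membrane serine protease matriptase, averaged 42.4 ± 0.428 CPM in p57 KO and 27.4 ± 1.45 CPM in control. H2afj, a histone H2A variant, averaged 35.9 CPM in p57 KO and 22.8 CPM in control, and Hexim1, an inhibitor of the elongation factor P-TEFb, 67.7 CPM in p57 KO and 42.7 CPM in control. By the same measure the nearest subunit was Exoc7, at rank 1397 with a difference of 0.26, and the other 6 stood at ranks 4691 (Exoc3) to 7254 (Exoc5).

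**Figure D5:**
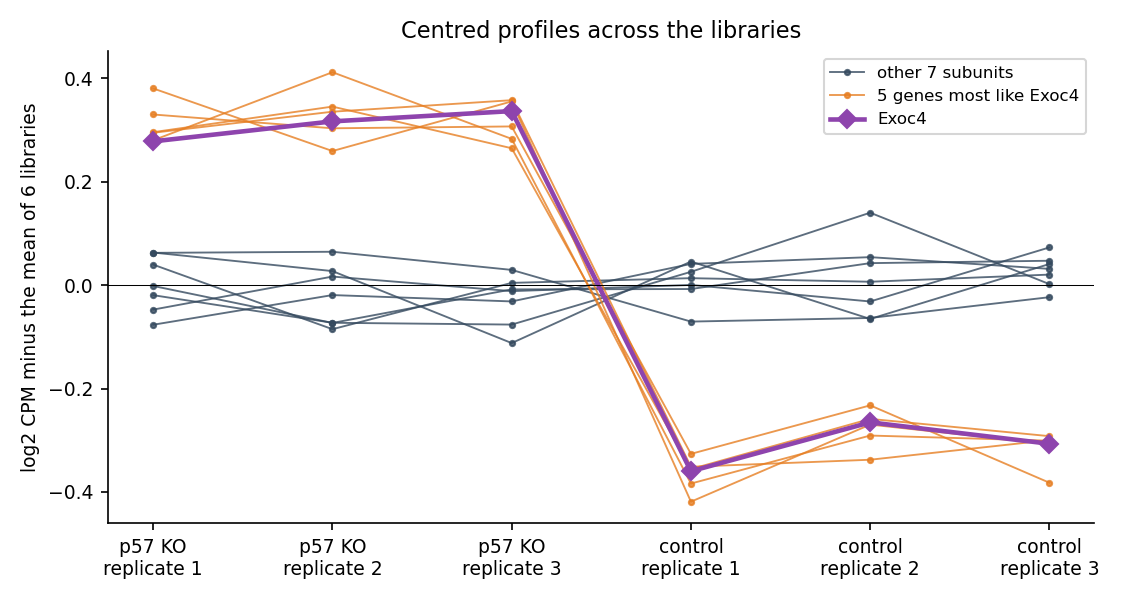
Log2 CPM of each gene minus its mean over the 6 libraries, p57 KO replicates left of control replicates, for Exoc4 (thick line), the 5 genes nearest to it (orange) and the other 7 subunits (dark). Exoc4 and the 5 genes lie above 0 in every p57 KO library and below 0 in every control library, and the other subunits stay near 0.

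On chromosome 6, 13 other genes of the table lie within 500 kb of Exoc4, and 7 of them were tested. The nearest tested gene, Lrguk, at 55.5 kb, averaged 1.93 CPM in p57 KO and 2.43 CPM in control (edgeR adjusted p = 0.374). Slc35b4, a nucleotide sugar transporter at 179.4 kb, fell to 70.6 ± 2.69 CPM in p57 KO, against 78.5 ± 2.72 CPM in control (-0.15, edgeR adjusted p = 0.0117). The call was lost in DESeq2 (adjusted p = 0.0612), with the fibroblast score (0.572, log2 fold change -0.12) and without control replicate 1 (0.0666). Chchd3, a mitochondrial cristae protein gene at 188.8 kb, averaged 65 CPM in p57 KO and 69.5 CPM in control (edgeR adjusted p = 0.106).

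Farther out lie aldo-keto reductase genes, which are similar in sequence. Akr1b3, at 328.5 kb, fell by 0.1 on the log2 scale (edgeR adjusted p = 0.0435). It was not called in DESeq2 (adjusted p = 0.16) or limma-voom (0.0505), with at least 1 CPM in 3 libraries (0.0533), with the fibroblast score (0.561), or without p57 KO replicate 1 (0.0961), p57 KO replicate 3 (0.0819), control replicate 1 (0.093) or control replicate 3 (0.158). Akr1b10, at 410.2 kb, rose to 20.5 ± 0.514 CPM in p57 KO, against 14.5 ± 1.5 CPM in control (0.5, edgeR adjusted p = 0.000217). With the fibroblast score as a covariate its log2 fold change was 0.34 (adjusted p = 0.284). Akr1b8 between them averaged 25.7 CPM in p57 KO and 22.8 CPM in control (edgeR adjusted p = 0.0777, and 0.0254 without p57 KO replicate 1), and Gm14546 1.88 CPM in p57 KO and 1.23 CPM in control (edgeR adjusted p = 0.152). BC049739, Gm14540, Gm13853, Gm13856, Gm13855 and Akr1b7 were below the count filter.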

How the data were processed

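The authors deposited a table of unnormalised gene counts for the 6 libraries. Per the submitters' processing notes, the tools were HTSeq 2.0.2, HISAT2 2.2.1, cutadapt 3.4 and bcl2fastq 2.20, with build mm10. Libraries were stranded and read as single 76 bp reads, per the labels. The authors' annotation, strand setting and treatment of multi-mapping reads are not stated in the sources.

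The members and lists were chosen with earlier results of these data known. Genes were filtered with edgeR's filterByExpr (14814 kept) and tested with edgeR 4.0.16 (quasi-likelihood, TMM, group only, R 4.3.3, limma 3.58.1) with Benjamini-Hochberg adjustment and a threshold of 0.05. The common biological coefficient of variation was 4.35%. Confidence intervals use the t distribution of the fit, with SE from the F statistic. The rule for named genes took all subunits and paralogs, up to 4 called members of smallest p per list, the 5 profiles nearest to Exoc4, genes within 500 kb of it and Cdkn1c. Positions are from GENCODE M21, in which 32158 of 32285 identifiers were found. Replicates differed by more than sampling noise (chi-square per degree of freedom 1.69 to 5.97). Alternatives were DESeq2 1.42.0, limma-voom, RLE size factors, other filters, the replicate block, the fibroblast score, each library left out and another transcript length, added after the data were seen.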

Additional observations from a re-analysis of the deposited data

How the results depend on the processing

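The log2 fold change of Exoc4 stayed between 0.60 and 0.64 without each library in turn and was 0.54 with the fibroblast score. These fits reuse the libraries in which the rise of Exoc4 was first seen, so they describe it and cannot test it. None of the 7 other subunits was called when any single library was left out. With at least 1 CPM in 3 libraries 1 of them (Exoc7) was called higher. Exoc1 turned to 0.011 and Exoc8 to 0.18 with the fibroblast score, Exoc3l to 0.067, Tnfaip2 to -0.16, Stx4a to -0.025, Rab11a to 2e-05, Rab8a to -0.11, Lrguk to 0.4 and Akr1b8 to -0.0077. Gm14546 was called with that score (adjusted p = 0.0246). Leaving out libraries, Exoc1 ranged from -0.054 to 0.0058, Exoc8 from -0.052 to 0.038, Exoc6b from -0.022 to 0.07, Rab11a from -0.04 to 0.013 and Rab8a from -0.025 to 0.04. Among the subunits and paralogs, the values that changed sign here were Exoc1 0.0058 without p57 KO replicate 2, Exoc8 0.038 without p57 KO replicate 3, 0.0035 without control replicate 1 and 0.00041 without control replicate 3, and Exoc6b -0.022 without p57 KO replicate 1. The cause was not tested.

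Over all genes, DESeq2 called 1044 lower, and the fibroblast score left 248 higher and 164 lower. Of the paralogs, 0 were called higher with at least 1 CPM in 3 libraries, where Exoc3l4 is not tested, and 0 with the fibroblast score. DESeq2 called 1 GTPase gene lower, 1 SNARE gene higher, and 0 higher and 1 lower among the TRAPP, HOPS and CORVET genes. The fibroblast score left 0 in each direction in these lists and 0 lower in the other CATCHR list, where the filter of 1 CPM called 1 higher. Without each library in turn, calls ranged from 0 to 2 (paralogs higher), 1 to 4 (GTPases lower), 1 to 2 and 2 to 4 (SNARE higher and lower), 1 to 4 (other CATCHR lower), and 0 to 1 and 1 to 2 (TRAPP, HOPS and CORVET higher and lower).

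With the replicate number as a block, 2 paralogs were called higher (Exoc3l4 and Tnfaip2, edgeR adjusted p = 0.0466 for Tnfaip2). None of the 7 subunits other than Exoc4 was called in that fit. Deviations of same-numbered libraries correlated at 0.191, 0.025 and -0.102, and those of the other pairs at -0.281 to 0.273. Whether same-numbered libraries were handled together was not tested, and so few libraries cannot settle it.

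With the longest coding transcript as the length, chosen after seeing the data, shares of the subunits are given for p57 KO, then control. They were 16.2 and 18.7% (Exoc1), 7.87 and 9.25% (Exoc2), 16.7 and 19.2% (Exoc3) and 34.5 and 25.3% (Exoc4). The rest were 2.85 and 3.48% (Exoc5), 4.77 and 5.72% (Exoc6), 14.2 and 14.9% (Exoc7) and 2.95 and 3.37% (Exoc8). Shares are parts of a fixed whole, so a larger share of Exoc4 makes those of the others smaller. The share of Exoc7 was smaller in p57 KO, though its mean CPM was 7.53% higher there.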
